A study of Homo sapiens with 6 samples.

Results

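The genes described here carry fatty acids through activation, uptake, mitochondrial import, oxidation, synthesis, elongation and desaturation. They form a list of 41 gene symbols grouped by function, and 39 of them had a probe set that carried their symbol alone, of 18417 genes measured in all. ACSL3 and CPT1B had none and were not analysed here. No member had a second such probe set, so each member is represented by 1 probe set. Expression was measured on Affymetrix whole-transcript arrays in HCT116 cells, a long-established line from a human colorectal carcinoma, grown in McCoy's 5A medium with serum. The samples were 3 arrays of a mutant line derived from HCT116 and labelled as having altered DNA methylation, against 3 arrays of parental HCT116 cells. Which gene was mutated is not stated in the labels, nor whether the arrays of a line came from separate clones or cultures. The mutation and any other feature in which the lines differ cannot be told apart. The p-values cover the spread among these 6 arrays alone, which may be technical.

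Fatty acids enter metabolism only after acyl-CoA synthetases join them to coenzyme A. The acyl-CoA can then be built into membrane and storage lipids, or be handed to carnitine for import into mitochondria, where beta-oxidation shortens it in cycles of dehydrogenation, hydration, a further dehydrogenation and thiolysis. Synthesis runs the other way in the cytosol, from citrate through acetyl-CoA and malonyl-CoA to palmitate, which elongases and desaturases then modify. Enterocytes absorb dietary fat and are rich in fatty acid transport and activation enzymes, and colorectal carcinoma cells often carry an active synthesis pathway.

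Values are log2 levels after robust multi-array averaging (RMA), which forces all arrays to 1 distribution, so levels are compared within a probe set and not between genes. In such bulk RNA, fewer cells expressing a gene and less RNA per cell cannot be told apart. The array medians were 6.88 to 6.93, which RMA itself brings together. Pairs of arrays correlated at 0.995 to 0.996 within a line and at 0.988 to 0.989 between the lines. The epithelial marker EPCAM was bright in both lines and read 12.39, 12.29 and 12.29 in mutant arrays and 12.16, 12.18 and 12.11 in parental arrays. Of 11 colorectal epithelial markers 4 were lower and 0 higher, by limma's test at an adjusted p under 0.05: CDH1 (-1.36), KRT18 (-0.88), KRT8 (-0.53) and KRT19 (-0.47). The mean over that list was 8.66 to 8.79 in mutant arrays and 9.02 to 9.04 in parental arrays, and its part in the results on fatty acid genes was not tested. Of the intestinal markers in that list, CDX2 read 8.41 to 8.51 in mutant and 8.48 to 8.56 in parental arrays, and CDX1 lay near 7 in both. LGALS4 stayed under 7, and KRT20, VIL1 and CDH17 under 6, in all 6 arrays. Of 7 adipocyte and 6 leukocyte markers 0 were called by the same test (0 and 1 had an unadjusted p under 0.05). Of 9 hepatocyte, 8 fibroblast and 5 striated muscle markers 1 each was called, SERPINA1 (-0.78), PDGFRB (0.27) and MYL2 (-0.69). Averaged over each of the last 5 lists, the level in every array lay between 5.23 and 7.05. In all 6 arrays 5 of 7 adipocyte, 8 of 9 hepatocyte and 7 of 8 fibroblast markers stayed under 7. So did 5 of 6 leukocyte and 3 of 5 striated muscle markers. Others were brighter, such as CD68 of the leukocyte list (9.12 to 9.44) and ACTA1 of striated muscle (8.48 to 8.66).

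Fatty acid genes differed between the lines in both directions. Among the members, 2 of 3 carnitine shuttle genes and 4 of 11 oxidation genes passed the test and were higher in the mutant. FASN, 1 of 4 synthesis genes, passed and was lower, as were 2 of 4 elongases and 2 of 6 acyl-CoA synthetases. Uptake genes (2 of 7 higher, 2 lower) and desaturases (2 of 4 higher, 1 lower) were called in both directions. The acyl-CoA synthetase ACSL5 had by far the largest difference, 28.8-fold lower in the mutant, while every other member differed by less than 2-fold. With limma and Benjamini-Hochberg adjustment over all 33297 probe sets, 18 of 39 members passed an adjusted p under 0.05, which is 46.2% of the members against 25.9% of all genes. Of these, 10 were higher, where 14.6% of all genes were, and 8 were lower, where 11.3% of all genes were. Bright genes were called more often, and all 18 called members were among the 34 with a mean of at least 7; in that range 52.9% of members and 36.5% of all genes passed (20.9% higher and 15.6% lower). The groups did not overlap in 29 members (14 higher, 15 lower), or 74.4%, where 45.8% of all genes had groups apart (25.3% higher, 20.5% lower). At 1.5-fold or more 2 members were higher and 3 lower, against 3.34% and 3.88% of all genes (7.22% in all). The median difference over the members was 0.06, and 0.0034 over all genes.

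**Figure D1:**
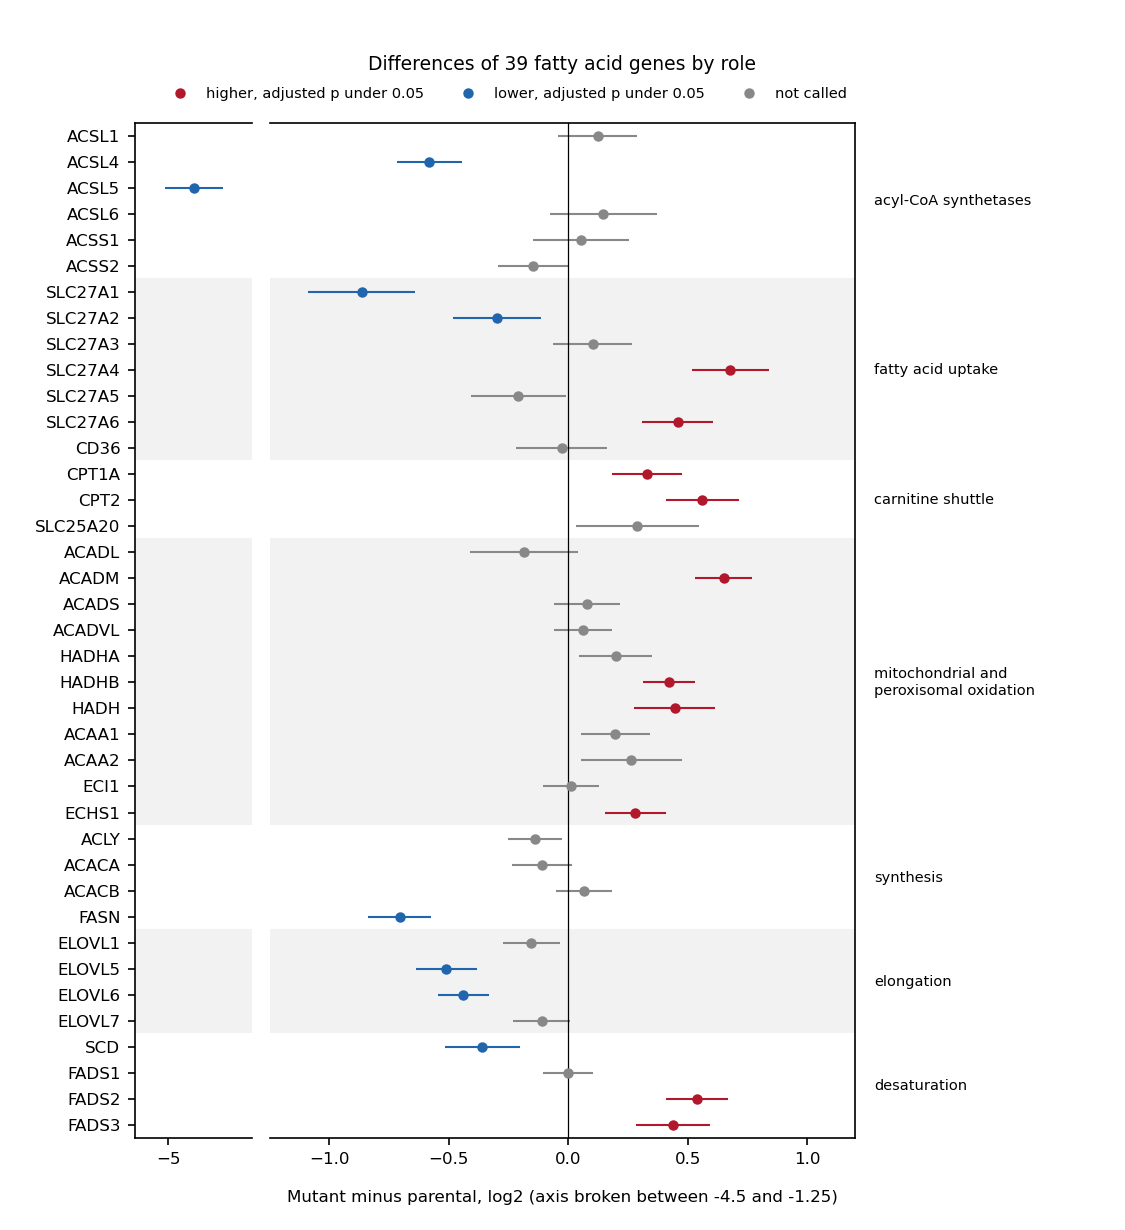
Differences between the lines (mutant minus parental, log2) for the 39 measured members, grouped by role; points are limma estimates and bars their unadjusted 95% intervals, and the horizontal axis is broken to hold ACSL5 at -4.85. The called members of the carnitine shuttle and oxidation groups lie right of 0, and those of synthesis and elongation left of it, with FASN at -0.71 and ACADM at 0.65. Called uptake genes and desaturases lie on both sides of 0.

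Among the acyl-CoA synthetases 2 of 6 measured members fell and 0 rose. ACSL5, a long-chain synthetase abundant in the intestine and found on the outer mitochondrial membrane and the endoplasmic reticulum, read 6.55, 6.77 and 6.75 in the mutant arrays, against 11.56, 11.52 and 11.53 in the parental arrays (probe set 7930498). All 3 mutant values lay more than 4 log2 units under every parental value. The difference was -4.85 (SE 0.071, adjusted p = 1.40e-06), the 13th largest decrease among the 18417 genes. The mutant mean of 6.69 lies under the medians of the arrays, in the range where RMA compresses differences, so the fitted fold may understate the change. ACSL5 lies on chromosome 10, and its 20 nearest expressed genes had a median difference of -0.06, none of them as low.

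The sequence upstream of ACSL5 is shown because the line is labelled for altered DNA methylation and ACSL5 is the largest change among the members. It comes from RefSeq (GRCh38.p14, chr10:112375018-112375267, plus strand, the 250 bases before the annotated start), with every CpG, the dinucleotide that carries DNA methylation, in capitals.
ACSL5: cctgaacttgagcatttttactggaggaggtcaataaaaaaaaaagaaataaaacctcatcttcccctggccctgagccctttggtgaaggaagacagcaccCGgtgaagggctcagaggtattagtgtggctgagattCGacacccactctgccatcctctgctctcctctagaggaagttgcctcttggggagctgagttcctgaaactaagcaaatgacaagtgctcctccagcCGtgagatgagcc
These 250 bases hold 3 CpGs, and 4 are found when the 50 bases after the start are added. The median over 35114 RefSeq promoters of that 300-base length is 14, and 24.5% of them hold fewer than ACSL5. The methylation of this region was not analysed here.

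ACSL4, which prefers arachidonic acid and other polyunsaturated chains, read 8.93, 8.95 and 8.92 in the mutant, against 9.51, 9.44 and 9.59 in parental cells. It fell by 0.58 (adjusted p = 0.00115), just short of 1.5-fold, while the median of its neighbours on the X chromosome was 0.13. ACSL1, the long-chain enzyme that predominates in liver and fat, showed 8.53, 8.71 and 8.73 in the mutant and 8.51, 8.53 and 8.57 in parental cells. Its groups overlapped (difference 0.12, 95% interval -0.04 to 0.29, adjusted p = 0.304). ACSL6, known from brain, was dim at 5.98 to 6.21 in the mutant and 5.80 to 6.05 in parental arrays, with overlapping groups. The acetate-activating enzymes ACSS1, of mitochondria, and ACSS2, of cytosol and nucleus, gave 0.05 and -0.15 (adjusted p = 0.748 and 0.160). In ACSS2 the 3 mutant values of 8.60 to 8.69 lay just under the 3 parental values of 8.70 to 8.85, without passing the test.

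The uptake genes moved in both directions, with 2 of 7 higher and 2 lower. SLC27A1 (FATP1), a transport protein with acyl-CoA synthetase activity best known from muscle and fat, read 7.14, 6.84 and 6.91 in the mutant, against 7.73, 7.88 and 7.87 in parental cells. The groups were well apart, and the level fell by 0.86 (SE 0.092, adjusted p = 0.00175), a 1.82-fold lower level. SLC27A4 (FATP4), the member of the family known from the absorptive cells of the small intestine, showed the reverse, with 10.81, 10.81 and 10.89 in the mutant and 10.05, 10.20 and 10.23 in parental cells. It rose by 0.68 (SE 0.067, adjusted p = 0.00132). SLC27A4 lies on chromosome 9 among genes that were higher as well: its 20 neighbours had a median of 0.33, 14 of them were called higher and 2 exceeded it. The part of this regional shift in the SLC27A4 value was not tested.

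SLC27A6 (FATP6), known from heart, read 8.83, 8.73 and 8.87 in the mutant, against 8.30, 8.34 and 8.41 in parental cells, and rose by 0.46 (adjusted p = 0.00403). SLC27A2 (FATP2), which activates very long chains, read 9.09, 9.27 and 9.04 in the mutant, against 9.37, 9.45 and 9.47 in parental cells. Its decrease of 0.30 passed narrowly (adjusted p = 0.0409), and the call was lost in 8 of 17 alternatives. Among them were the fits without parental array 1, 2 or 3 (adjusted p = 0.0714, 0.121 and 0.116) and without mutant array 1 or 3 (0.121 and 0.111), so for SLC27A2 no direction is drawn. SLC27A3 and SLC27A5, a family member known from liver, differed by 0.10 and -0.21 without passing (adjusted p = 0.395 and 0.148). CD36, the plasma membrane receptor for long-chain fatty acids, was dim at 3.39 to 3.55 in the mutant and 3.40 to 3.61 in parental arrays, and its groups overlapped.

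The carnitine shuttle was higher in the mutant in 2 of 3 measured members. CPT2, the inner membrane enzyme that returns acyl chains to coenzyme A inside mitochondria, read 8.58, 8.45 and 8.65 in the mutant, against 7.9982, 7.9947 and 7.9999 in parental cells. It rose by 0.56 (SE 0.063, adjusted p = 0.00210), or 1.48-fold, and none of its 20 neighbours on chromosome 1 rose as far. CPT1A, the outer membrane enzyme that controls the entry of long chains, read 10.60, 10.71 and 10.76 in the mutant, against 10.33, 10.34 and 10.41 in parental cells. Its rise of 0.33 (adjusted p = 0.0133) was not called without parental array 2 (adjusted p = 0.0551) or without mutant array 2 (adjusted p = 0.0544). SLC25A20, the carnitine-acylcarnitine carrier between both enzymes, read 7.61, 7.90 and 7.93 in the mutant and 7.45, 7.47 and 7.66 in parental cells, and its groups overlapped in mutant array 1. The difference of 0.29 did not pass (adjusted p = 0.127), and did without mutant array 1 (0.39, adjusted p = 0.0422).

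Of 11 oxidation genes 4 rose and 0 fell, with a median difference of 0.20. ACADM, the medium-chain acyl-CoA dehydrogenase that opens the cycle for medium chains, read 11.94, 11.85 and 11.90 in the mutant, against 11.21, 11.25 and 11.28 in parental cells. It rose by 0.65 (SE 0.049, adjusted p = 0.000508), or 1.57-fold, beside a neighbour median of -0.01 on chromosome 1. HADHB, the thiolase subunit of the mitochondrial trifunctional protein, read 10.61, 10.60 and 10.62 in the mutant, against 10.17, 10.22 and 10.19 in parental cells, and rose by 0.42 (SE 0.045, adjusted p = 0.00171). HADH, the hydroxyacyl-CoA dehydrogenase for shorter chains, read 9.81, 9.88 and 9.95 in the mutant, against 9.36, 9.54 and 9.41 in parental cells, and rose by 0.45 (adjusted p = 0.00748). ECHS1, the short-chain enoyl-CoA hydratase, read 9.96, 10.05 and 10.00 in the mutant, against 9.69, 9.71 and 9.76 in parental cells. Its rise of 0.28 (adjusted p = 0.0135) was not called without parental array 2 (adjusted p = 0.0573) or mutant array 2 (adjusted p = 0.0562). In all 4 of these genes every mutant array stood above every parental array.

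A further 3 oxidation genes had higher groups that did not overlap but missed the threshold. With these, groups were apart and higher in 7 of 11 oxidation genes and lower in 1, against 25.3% and 20.5% of all genes. HADHA, the other trifunctional protein subunit, read 11.25, 11.31 and 11.29 in the mutant, against 10.98, 11.16 and 11.11 in parental cells (difference 0.20, adjusted p = 0.0835). The peroxisomal thiolase ACAA1 and the mitochondrial thiolase ACAA2 differed by 0.20 and 0.26 (adjusted p = 0.0731 and 0.0921). These 3 also passed when only probe sets with a mean of at least 7 were tested. They passed too with an intensity trend in the variance, or with single-symbol probe sets only. In each of these alternatives, taken alone, 7 of 11 oxidation genes were called higher. The background rose as well. Among the 11208 genes with a mean of at least 7 the higher calls went from 2337 to 3203 when those alone were tested. Over all 18417 genes they went from 2685 to 3244 with the trend and 3378 with single-symbol probe sets. The very-long- and short-chain dehydrogenases ACADVL (0.06, 95% interval -0.06 to 0.18) and ACADS (0.08, -0.06 to 0.22) and the isomerase ECI1 (0.01, -0.10 to 0.13) had overlapping groups, and their intervals do not reach the rise of ACADM. ACADL, a long-chain dehydrogenase, was dim at 3.75 to 3.79 in the mutant and 3.84 to 4.16 in parental arrays. The mean deviation of the 11 genes, taken from the parental mean, was 0.23, 0.21 and 0.22 in mutant arrays and between -0.02 and 0.03 in parental arrays.

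**Figure D2:**
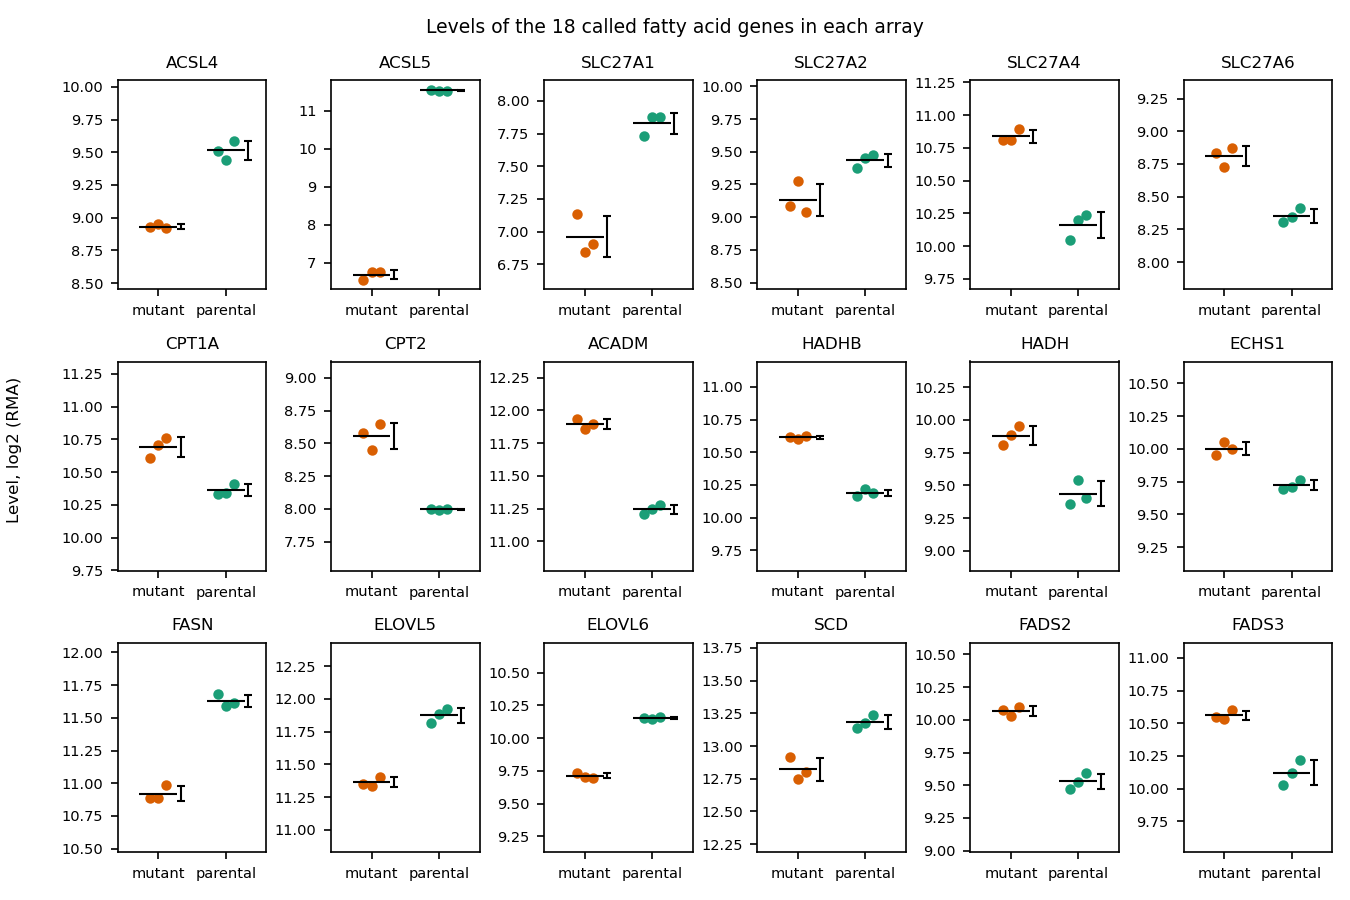
Log2 levels of the 18 called members in each array, with mutant arrays at the left of each panel and parental arrays at the right; lines mark means, brackets the SD (n = 3 each), and each panel has its own vertical axis. In every panel the groups are apart, most widely for ACSL5 (6.55 to 6.77 in the mutant, 11.52 to 11.56 in parental cells).

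The upstream sequences of ACADM, CPT2 and HADHB are shown as those of a carnitine shuttle gene, CPT2, and of oxidation genes that rose, each the 250 bases before the start in RefSeq (GRCh38.p14, plus strand, CpGs in capitals). They lie at chr1:75724459-75724708, chr1:53196574-53196823 and chr2:26244689-26244938.
ACADM: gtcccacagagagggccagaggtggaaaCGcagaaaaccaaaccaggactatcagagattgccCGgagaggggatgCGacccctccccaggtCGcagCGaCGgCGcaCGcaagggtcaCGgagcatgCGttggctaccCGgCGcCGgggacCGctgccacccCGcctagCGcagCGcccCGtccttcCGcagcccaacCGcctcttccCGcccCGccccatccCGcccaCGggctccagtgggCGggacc
CPT2: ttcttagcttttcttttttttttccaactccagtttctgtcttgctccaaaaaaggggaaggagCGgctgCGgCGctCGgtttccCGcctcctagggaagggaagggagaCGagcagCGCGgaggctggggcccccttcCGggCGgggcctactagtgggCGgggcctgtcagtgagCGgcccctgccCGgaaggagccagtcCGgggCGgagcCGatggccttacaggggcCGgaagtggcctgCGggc
HADHB: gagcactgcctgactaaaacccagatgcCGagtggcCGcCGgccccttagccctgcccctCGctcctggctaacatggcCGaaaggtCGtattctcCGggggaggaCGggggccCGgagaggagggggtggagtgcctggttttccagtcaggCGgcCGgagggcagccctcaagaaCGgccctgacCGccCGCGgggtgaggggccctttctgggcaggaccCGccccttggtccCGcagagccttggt
They hold 25, 18 and 17 CpGs, against 3 upstream of ACSL5. HADHA and HADHB are transcribed in opposite directions from starts that RefSeq places 307 bases apart, so the sequence printed for HADHB covers much of the region before HADHA as well. HADHB was called and HADHA was not, and the difference between them was not tested.

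Of 4 synthesis genes 1 fell and 0 rose. FASN, fatty acid synthase, read 10.89, 10.89 and 10.99 in the mutant, against 11.68, 11.59 and 11.61 in parental cells. It fell by 0.71 (SE 0.055, adjusted p = 0.000541), a 1.63-fold lower level. FASN lies on chromosome 17 among genes that were lower too, with a neighbour median of -0.29 and 13 of 20 called lower, though none of the 20 fell as far; the part of this shift in the FASN value was not tested. ACLY, which makes cytosolic acetyl-CoA from citrate, read 11.88, 11.86 and 11.93 in the mutant, against 12.02, 12.03 and 12.05 in parental cells. The groups did not overlap, but the difference of -0.14 did not pass (adjusted p = 0.0980). The acetyl-CoA carboxylases ACACA, of lipid synthesis, and ACACB, of the mitochondrial surface, differed by -0.11 (95% interval -0.23 to 0.01) and 0.06 (-0.05 to 0.18), neither passing.

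All 4 elongases were lower on average, 2 of them past the test. ELOVL5, which extends polyunsaturated chains, read 11.35, 11.33 and 11.40 in the mutant, against 11.81, 11.89 and 11.92 in parental cells, and fell by 0.51 (SE 0.053, adjusted p = 0.00161). ELOVL6, which extends palmitate towards stearate, read 9.74, 9.70 and 9.70 in the mutant, against 10.15, 10.15 and 10.16 in parental cells, and fell by 0.44 (SE 0.044, adjusted p = 0.00140). ELOVL1, of saturated very long chains, and ELOVL7 differed by -0.16 and -0.11 (adjusted p = 0.0822 and 0.198), with mutant arrays below parental arrays in both. Of all genes 20.5% had every mutant array below every parental array.

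Desaturases divided. SCD, the stearoyl-CoA desaturase that makes oleate, read 12.92, 12.75 and 12.80 in the mutant, against 13.14, 13.17 and 13.24 in parental cells, and fell by 0.36 (adjusted p = 0.0121). FADS2, the desaturase of the first step from linoleate to longer polyunsaturated chains, read 10.07, 10.03 and 10.10 in the mutant, against 9.47, 9.52 and 9.59 in parental cells, and rose by 0.54 (SE 0.054, adjusted p = 0.00138). FADS3, a sphingoid base desaturase, read 10.54, 10.53 and 10.60 in the mutant, against 10.03, 10.12 and 10.22 in parental cells, and rose by 0.44 (adjusted p = 0.00575). FADS1, the desaturase of the later step, read 11.36, 11.35 and 11.35 in both groups, with a difference within -0.10 to 0.10 (95% interval, adjusted p = 0.997). The 3 FADS genes lie together on chromosome 11, and RefSeq places the starts of FADS1 and FADS2 800 bases apart on opposite strands. The 20 nearest genes to FADS2 had a median of -0.0046 and none rose as far.

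ELOVL5 and SCD upstream sequences are shown as those of lipogenic genes that fell (RefSeq, GRCh38.p14, CpGs in capitals). They lie at chr6:53348951-53349200 on the minus strand and chr10:100346983-100347232 on the plus strand.
ELOVL5: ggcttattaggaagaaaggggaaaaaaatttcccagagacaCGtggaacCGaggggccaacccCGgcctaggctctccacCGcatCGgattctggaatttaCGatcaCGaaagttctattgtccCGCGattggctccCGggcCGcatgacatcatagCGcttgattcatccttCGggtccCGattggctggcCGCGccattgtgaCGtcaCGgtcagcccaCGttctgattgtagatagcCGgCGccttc
SCD: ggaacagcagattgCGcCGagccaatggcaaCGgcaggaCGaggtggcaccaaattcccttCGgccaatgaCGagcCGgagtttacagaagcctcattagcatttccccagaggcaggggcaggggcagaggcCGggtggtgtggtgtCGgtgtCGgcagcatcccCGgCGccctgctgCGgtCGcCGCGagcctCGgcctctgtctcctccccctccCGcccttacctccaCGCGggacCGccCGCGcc
Of the 41 listed members 38 had a RefSeq promoter. Within 300 bases, 250 before and 50 after the start, the 10 higher members held a median of 26.5 CpGs and the 7 lower members with a sequence 25, against 25.5 in the 20 that were not called and 23 over 14236 measured genes. The letters CACGTG, which read the same on both strands and are known as an E-box, occurred in ELOVL5 and in no other member, against 8.88% of the promoters of measured genes and 7.26% of all 35114. The letters CCAAT (known from NF-Y), read on both strands, occurred in 10 of 38 members (26.3%), 36.3% of the promoters of measured genes and 34.6% of all. GGGCGG, the GC box, also read on both strands, was in 27 of 38 members (71.1%), 60.0% of the promoters of measured genes and 45.0% of all. Overlaps between matches of different motifs were not separated, and a match describes the sequence only.

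The measured members lie on 18 chromosomes, and each was set beside its 20 nearest genes with a mean of at least 7. Apart from SLC27A4 and FASN, the neighbour medians of called members ran from -0.09 (ELOVL5) to 0.13 (ACSL4), smaller in size than each member's own difference. ACLY, ACACA and ACADVL, also on chromosome 17, had neighbour medians of 0.06, 0.0019 and -0.02, and ACAA2 on chromosome 18 had 0.15.

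**Figure D3:**
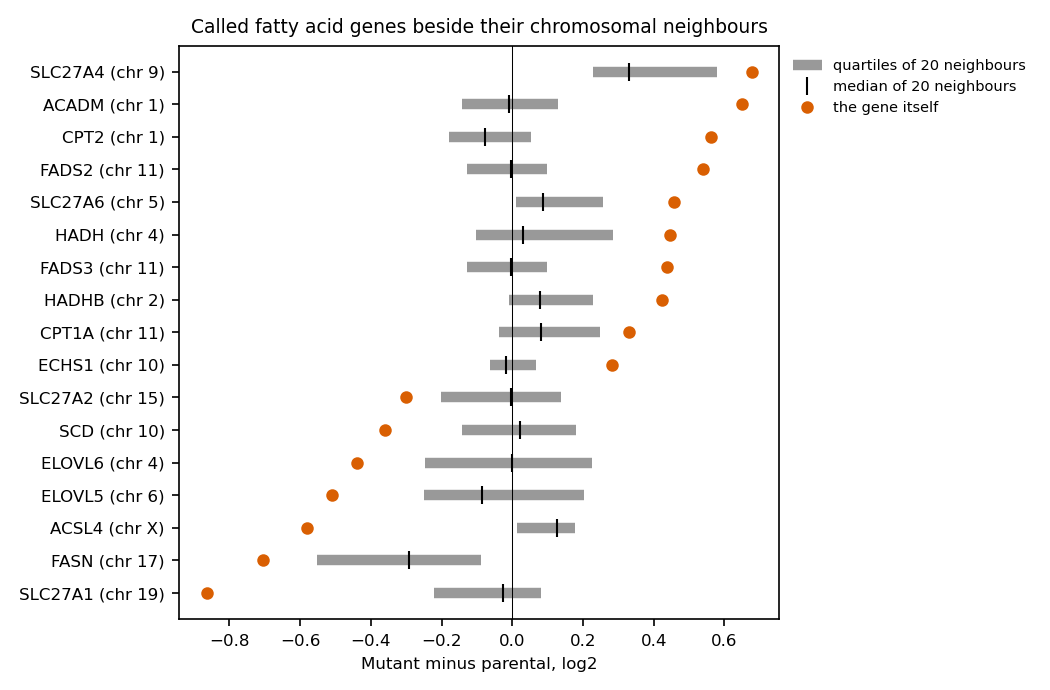
Difference (mutant minus parental, log2) of 17 called members, as points, beside the median and quartiles of the 20 nearest genes with a mean of at least 7 on the same chromosome; ACSL5 at -4.85 is left out for scale. Neighbours of SLC27A4 on chromosome 9 (median 0.33) and of FASN on chromosome 17 (median -0.29) are shifted in the direction of the gene itself.

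Other genes of these pathways, taken from lists by function, were examined the same way, and of 161 measured 36 were higher (22.4%) and 27 lower (16.8%), against 14.6% and 11.3% of all genes. Among the 126 with a mean of at least 7 the shares were 28.6% higher and 20.6% lower, against 20.9% and 15.6% of all genes that bright. Of 22 mitochondrial oxidation and electron transfer genes outside the member list, all with a mean of at least 7, 12 were higher (54.5%) and 2 lower, with a median of 0.27. The list also holds genes of ketone bodies and amino acid breakdown, among them OXCT1, ACAD8 and PCCB (higher) and IVD and PCCA (not called). Its share therefore does not describe fatty acid oxidation alone. The difference between this list and the others was not tested. CRAT, the carnitine acetyltransferase, rose by 1.21 (adjusted p = 8.33e-05), OXCT1, which activates ketone bodies, by 0.62 (adjusted p = 0.00274), and DECR1, the auxiliary reductase for unsaturated chains, by 0.53 (adjusted p = 0.00132). CRAT lies in the shifted part of chromosome 9, where its neighbours had a median of 0.41, and 1 of 20 exceeded it. PDK4, a kinase that shuts pyruvate dehydrogenase, fell by 0.55 (adjusted p = 0.00141) and the isomerase ECI2 fell by 0.21 (adjusted p = 0.0241). In the list of peroxisomal genes 9 of 20 rose (45%) and 1 fell (5%), with a median of 0.12. The largest rise was that of PHYH, which starts the oxidation of phytanic acid, at 0.93 (adjusted p = 0.000204). PEX5, the import receptor, and ABCD3, a transporter of branched acyl-CoAs, both rose by 0.35 (adjusted p = 0.0237 and 0.00890). ABCD4, which is in this list but known from lysosomes, fell by 0.28 (adjusted p = 0.0374).

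Synthesis genes outside the member list had 2 of 23 higher (8.7%) and 5 lower (21.7%), with a median of -0.04. Over all genes the shares were 14.6% and 11.3%. Among the 18 with a mean of at least 7 they were 11.1% and 27.8%, against 20.9% and 15.6% of all genes that bright. MID1IP1, an activator of acetyl-CoA carboxylase polymerisation, fell by 1.98 (adjusted p = 2.33e-05), with 8.31, 8.35 and 8.38 in the mutant, against 10.24, 10.35 and 10.41 in parental cells. SLC25A1, the mitochondrial citrate carrier that feeds ACLY, fell by 0.64 (adjusted p = 0.00179) and HSD17B8 of mitochondrial synthesis fell by 0.29 (adjusted p = 0.0311). OXSM, of mitochondrial synthesis, and the malic enzyme ME1, a source of NADPH, rose by 0.37 and 0.22 (adjusted p = 0.00953 and 0.0220).

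Regulators of lipid metabolism gave 5 of 29 higher (17.2%) and 7 lower (24.1%), with a median of -0.05. Over all genes the shares were 14.6% and 11.3%. Among the 26 regulators with a mean of at least 7 they were 19.2% and 26.9%, against 20.9% and 15.6% of all genes that bright. INSIG1, the sterol sensor that retains SREBP in the endoplasmic reticulum and is itself an SREBP target, fell by 0.87 (adjusted p = 0.000440). The nuclear receptors PPARG and PPARD, which bind fatty acids, fell by 0.86 and 0.68 (adjusted p = 0.000372 and 0.000762). SREBF1, which encodes the main activator of fatty acid synthesis genes, and SREBF2, of sterol synthesis, fell by 0.47 and 0.36 (adjusted p = 0.00130 and 0.00379); both were named after their values were seen. PRKAA2, PRKAB1 and PRKAB2, subunits of AMPK, the kinase that restrains acetyl-CoA carboxylase, rose by 0.61, 0.52 and 0.49 (adjusted p = 0.000604, 0.00823 and 0.00162). They are named as the 3 largest called rises of the list. The AMPK subunits PRKAA1, PRKAG1 and PRKAG2 were listed too but are not described here, so no direction is drawn for AMPK as a whole. PPARA, the receptor known for inducing oxidation genes in liver, differed by -0.24 without passing (adjusted p = 0.0948) and was likewise named after its values were seen.

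**Figure D4:**
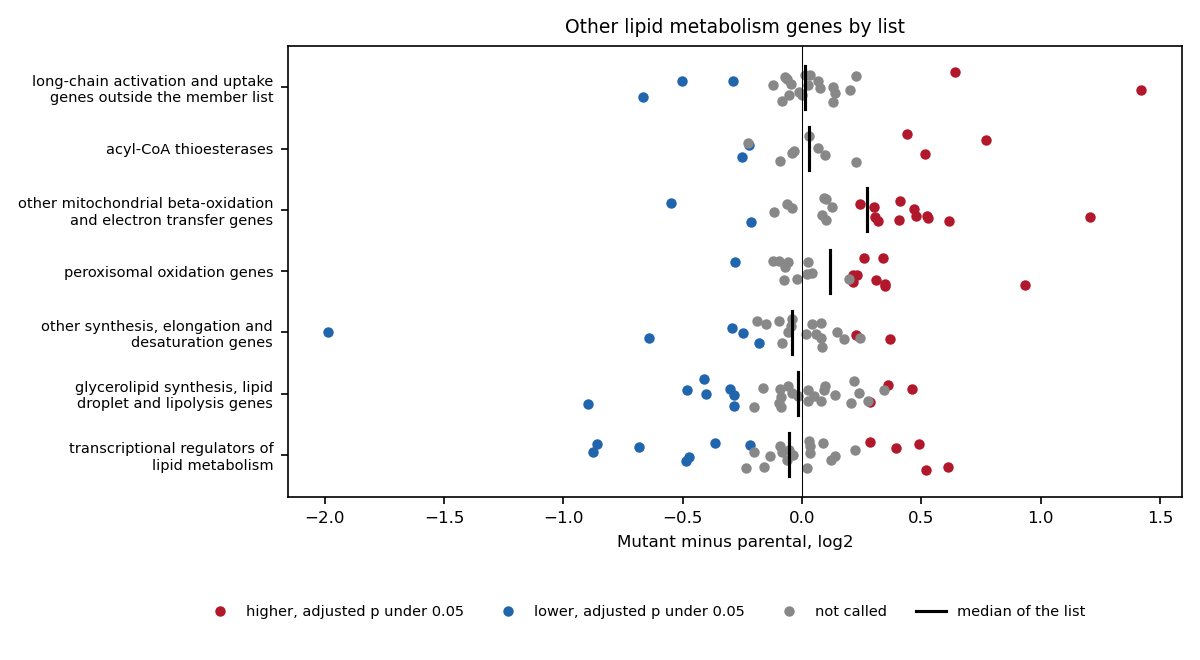
Difference (mutant minus parental, log2) of 161 other lipid metabolism genes, 1 point per gene in 7 lists, with a bar at each list's median; vertical scatter within a list has no meaning. The median is 0.27 in the list of other mitochondrial oxidation genes and between -0.05 and 0.12 in the rest, with MID1IP1 at -1.98 and FABP6 at 1.42 at the ends.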

How the data were processed

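The authors deposited log2 values, 1 per probe set and array, and, per the submitters' processing notes, used RMA and Partek; their versions, the genome build and the annotation release were not given in the sources used here. The RMA method corrects background, equalises the arrays' distributions and summarises probes, so it hides differences in total RNA per cell and compresses dim signals. Of 33297 probe sets, 19460 have 1 gene symbol, 1754 several and 12083 none in the platform annotation. Each of 18417 genes was represented by its single-symbol probe set with the highest mean over the 6 arrays. Mutant minus parental differences were fitted on all probe sets with limma 3.58.1 (lmFit, eBayes, two-sided, no covariates) in R 4.3.3, adjusted by Benjamini-Hochberg, and called at an adjusted p under 0.05. Arrays have no sequencing depth; their number limits the precision.

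The members, role groups, lists, named genes and alternatives were chosen with earlier results of these data known. All members are named; all array values are given for members called at 1.5-fold and for up to 2 per role with the smallest adjusted p, and were added for other members where the text turns on them. In each other list up to 3 called genes per direction with the largest difference are named. Lists are described by counts and medians, with no set test. Neighbours are the 20 nearest genes in RefSeq order with a mean of at least 7. Gene positions and promoters come from RefSeq (GRCh38.p14) and describe the genome, not the probes. On simulated data with 33297 probe sets, 67 were changed 1.5-fold, 67 2-fold and 66 4-fold. Of these changes 55.2%, 76.1% and 95.5% were recovered, and 6 unchanged probe sets were called. Far fewer probe sets were changed there than were called in the real data, so these shares do not give the sensitivity of the real comparison. Python 3.11.15 with pandas 2.3.3 and matplotlib 3.10.9 served for summaries and figures. Alternatives changed the normalization, the filter on dim probe sets, the variance model, array weights, the replicate block, the arrays used, the fold tested and the choice of probe sets. A planned comparison of ACSL proteins was not made, as no protein sequences were used here.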

Additional observations from a re-analysis of the deposited data

How the results depend on the processing

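The counts of called genes among the members, their 7 role groups, the other lipid genes as 1 list and all genes were recomputed under 17 alternatives, and 0 of 39 members had a call that reversed direction. Of the 18 called members, 14 kept the call in every alternative except the test for a fold of at least 1.2, which is stricter by construction. That test called 4 members higher and 5 lower (9 in all), against 686 and 756 of all genes (1442 in all) and 11 and 9 of the other lipid metabolism genes (20 in all). The 4 exceptions were SLC27A2, CPT1A, ECHS1 and SCD, and 6 members that were not called passed in some alternatives. When 1 array at a time was left out, there were 15 to 18 called members, 1720 to 2046 higher genes over all, and among the other lipid genes 16 to 20 lower and 41 to 51 in all. The lowest of these came without mutant array 2, except for the members, where it came without parental array 2 (17 lower lipid genes and 1778 higher genes over all without that array). Same-numbered arrays deviated from their group means with correlations of -0.01 to 0.04, and differently numbered arrays with -0.06 to 0.06. Whether a number stands for arrays handled together cannot be told from these values. With the array number as a replicate block, 10 members were higher and 6 lower. Of all genes 3395 were then called, against 4773 without the block. SLC27A2 (adjusted p = 0.0764) and SCD (adjusted p = 0.0518) were not called with the block, leaving 0 of 4 desaturases lower. Over all alternatives the called members numbered 9 to 24, while the called genes over all numbered 1442 to 5990.

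The 5 members with a mean under 7 (CD36, ACADL, ACSL6, ACSS1 and SLC27A5) lie where RMA compresses differences, so their small differences say little. The 3 arrays per group set the width of the intervals.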

Other observations

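Genes that bind, hydrolyse or store fatty acids moved in both directions. Of 23 activation and uptake genes outside the member list 2 rose and 3 fell (median 0.01). FABP6, the bile acid binding protein of the ileum, rose by 1.42 (adjusted p = 9.41e-05), with 10.28, 10.33 and 10.38 in the mutant, against 8.83, 8.89 and 9.01 in parental cells, and the acyl-CoA binding gene ACBD7 rose by 0.64 (adjusted p = 0.00359). ACSF2, a medium-chain acyl-CoA synthetase on chromosome 17, fell by 0.67 (adjusted p = 0.000468) among neighbours with a median of -0.44. ACBD3, a Golgi protein, and CAV1, the coat protein of caveolae, fell by 0.50 and 0.29 (adjusted p = 0.00223 and 0.00870). Of 13 acyl-CoA thioesterases 3 rose (23.1%) and 2 fell (15.4%), with a median of 0.03, against 14.6% and 11.3% of all genes. These 3 and 2 were all among the 6 thioesterases with a mean of at least 7. THEM4, ACOT13 and the peroxisomal ACOT8 rose by 0.77, 0.51 and 0.44 (adjusted p = 0.000321, 0.00166 and 0.00377), whereas ACOT7 and ACOT11 fell by 0.25 and 0.22 (adjusted p = 0.0277 and 0.0275).

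Of 31 genes of glycerolipid synthesis, lipid droplets and lipolysis 3 rose (9.7%) and 7 fell (22.6%), with a median of -0.02. Over all genes the shares were 14.6% and 11.3%. Among the 25 with a mean of at least 7 they were 12% and 24%, against 20.9% and 15.6% of all genes that bright. MGLL, the lipase that releases the last fatty acid from a glyceride, fell by 0.90 (adjusted p = 0.00159), with 6.66, 6.34 and 6.42 in the mutant, against 7.31, 7.42 and 7.38 in parental cells. AGPAT5, an acyltransferase of phosphatidic acid synthesis, fell by 0.41 (adjusted p = 0.00680), and LPCAT1, which remodels phosphatidylcholine, and GPAT4 rose by 0.46 and 0.36 (adjusted p = 0.00337 and 0.00513). LPIN2 on chromosome 18 fell by 0.48 (adjusted p = 0.00215) and AGPAT2 on chromosome 9 rose by 0.28 (adjusted p = 0.0163), both by less than the median of their neighbours, which was -0.64 and 0.36.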
